A study of Mus musculus with 10 samples.

Results

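The leukocyte integrin chains and the selectin ligand PSGL-1 were described from 7 genes chosen by name: Itgb2, Itgal, Itgam, Itgax, Itgb1, Itga4 and Selplg. The table held 28185 genes, all 7 members were in it, and all 7 passed the filter on low values (10 or more normalized counts on average over the 10 libraries), as did 11549 genes in all. L-selectin, which shares its name with the selectin family that PSGL-1 binds, was not analysed here. The libraries were made from Ly6G+ cells that were pulled out with magnetic beads 3 days after the left coronary artery (LCA) had been tied off in C57Bl/6J mice of 12 to 16 weeks. The MI group (3 libraries, named 13, 19 and 20) came from the digested left ventricle below the ligature of mice that received no cells. The MI+MSC group (libraries 15, 17 and 18) came from the same tissue of mice that had received 3 injections of 1000000 syngeneic mesenchymal stromal cells (MSC) under the skin directly after the ligation. Blood (libraries 21 and 22) and Blood+MSC (libraries 23 and 24) were the same selection from the blood of mice without and with MSC. All 4 groups came from ligated animals, and none from an animal without ligation. The labels tie no heart library to a blood library, and their batch entry repeats the group, so a batch and the group cannot be told apart. They do not say whether each library is a separate mouse, and p-values measure only the spread between libraries.

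Integrins are pairs of an alpha and a beta chain that hold a cell to its neighbours or to the matrix, and they bind firmly only after signals from inside the cell have opened them. In leukocytes the beta2 chain (CD18, Itgb2) pairs with alphaL (CD11a, Itgal) to form LFA-1, with alphaM (CD11b, Itgam) to form Mac-1 and with alphaX (CD11c, Itgax), while the beta1 chain (CD29, Itgb1), which most cells carry, pairs with alpha4 (CD49d, Itga4) to form VLA-4. PSGL-1 (Selplg) on the leukocyte catches the selectins of endothelium and platelets, so that the cell rolls along the vessel wall before LFA-1 and Mac-1 arrest it.

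Recovered reads ranged from 148594 (MI 13) to 8602711 (Blood+MSC 24), and 1 read stood for 8.40 normalized counts in MI 13 and 7.07 in Blood 21. A normalized count is the number of reads divided by the size factor of the library, and fold changes are on the log2(normalized count + 2) scale. In MI 13 the members had between 10 reads (Itgal) and 44 reads (Itgb1), and in Blood 21 Itgax had 8 reads. The 12 neutrophil markers summed to 2765 to 15040 normalized counts in the cardiac libraries and 17509 to 55920 in blood, with Ngp at 0 in MI 13. The 10 striated muscle markers summed to 3265 to 24896 in the cardiac libraries and 22.6 to 63.6 in blood, where up to 9 of the 10 were at 0. The 11 monocyte and macrophage markers summed to 5429 to 20039 in cardiac and 11206 to 22616 in blood libraries, and none was at 0 in any library. Fewer cells of a type in a library and less RNA per cell cannot be told apart in these bulk samples. The 893 odorant and vomeronasal receptor genes, sensory receptors that neither tissue is known for, took 0.0805% to 1.10% of the reads of the cardiac libraries and 0.0138% to 0.0274% in blood, with the 1.10% in MI 13. At the rate per exon length on those genes, 6.29 of the 14 Itga4 reads, 2.47 of the 10 Itgal reads and 1.83 of the 13 Itgax reads in MI 13 would be expected on that length alone, with 3.94% to 6.21% of the reads of the other 4 members, and no member in a library other than MI 13 would have more than 6.22% of its reads expected.

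Itgb2 (ENSMUSG00000000290), the beta chain shared by LFA-1, Mac-1 and CD11c, lay at chromosome 10, 77366086 to 77401542, forward strand (GRCm39). The MI libraries had 261, 409 and 444 normalized counts of Itgb2, the MI+MSC libraries 371, 321 and 344, the Blood libraries 982 and 1306 and the Blood+MSC libraries 1119 and 993. Every cardiac library was under every blood library. The fitted level in MI was 3.12-fold lower than in Blood (log2 fold change -1.64, SE 0.33, adjusted p = 0.00377 with limma), and in MI+MSC it was 3.04-fold lower than in Blood+MSC (-1.61, SE 0.33, adjusted p = 0.00881).

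Itgal (ENSMUSG00000030830), which gives LFA-1 its ligand-binding chain, lay at chromosome 7, 126895432 to 126934320, forward strand. Itgal stood at 84.0, 177 and 156 normalized counts in the MI libraries, at 135, 154 and 54.2 in those of MI+MSC, at 495 and 1436 in those of Blood and at 719 and 595 in those of Blood+MSC. The cardiac and blood libraries did not overlap, and the highest cardiac library was below the lowest blood library, Blood 21. The fitted level was 6.28-fold lower in MI than in Blood (log2 fold change -2.65, SE 0.53, adjusted p = 0.00415 with limma) and 6.18-fold lower in MI+MSC than in Blood+MSC (-2.63, SE 0.53, adjusted p = 0.00888).

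Itgam (ENSMUSG00000030786), the alpha chain of Mac-1 and the usual surface marker of myeloid cells, lay at chromosome 7, 127661808 to 127717753, and Itgax (ENSMUSG00000030789), the CD11c chain best known from dendritic cells and macrophages, followed it on the same strand after a gap of 10914 bases (127728668 to 127749829). The MI libraries had 261, 484 and 482 normalized counts of Itgam, the MI+MSC libraries 580, 620 and 427, the Blood libraries 777 and 793 and the Blood+MSC libraries 559 and 555. The MI libraries were all below the Blood libraries, while the MI+MSC libraries lay on either side of the Blood+MSC libraries. Itgam was called lower in MI than in Blood (1.99-fold, log2 fold change -0.99, SE 0.35, adjusted p = 0.0456 with limma). The call was lost in 15 of the 21 alternatives, library size scaling (-0.47) and the subtraction of the receptor gene rate (-1.03, adjusted p = 0.0726) among them. MI+MSC against Blood+MSC gave -0.06 (SE 0.35, adjusted p = 0.929).

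Itgam values carry a limit of the annotation. The annotated gene Gm49368 runs over Itgam on the same strand, shares 3450 of the 5118 exon bases of Itgam and holds 89.3% of the 100-base windows of the canonical Itgam transcript, yet it had only 0 to 42 reads in a library. How reads that fit 2 genes were counted is not given in the sources used here, so the Itgam level may hold only part of its reads. The other members shared no exon base with a gene on the same strand, and 3.65% of the Itgax windows occurred in Itgad, which codes for a related alpha chain. Itga4 shared 3481 exon bases with Cerkl on the opposite strand, and the counting was by strand.

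Itgax stood at 109, 97.1 and 108 normalized counts in the MI libraries, at 195, 186 and 94.2 in those of MI+MSC, at 56.5 and 167 in those of Blood and at 176 and 164 in those of Blood+MSC. Blood 21, with its 8 reads, was below every other library, and the cardiac and blood libraries overlapped. The log2 fold change was 0.10 (95% interval -0.86 to 1.06) for MI against Blood and -0.17 (-1.13 to 0.79) for MI+MSC against Blood+MSC, and the first became -0.66 without Blood 21. Exact runs shared between canonical transcripts were sought for 4 pairs, the 3 pairs among Itgal, Itgam and Itgax and the pair of beta chains. The longest was 17 bases for Itgal and Itgax and 17 bases for Itgb1 and Itgb2, and these runs are shown as the longest found among the alpha chains compared and between the beta chains.
Itgal and Itgax: tttgagaagaactgtgg
Itgb1 and Itgb2: atggatctctcctactc

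Promoter windows from RefSeq (GRCm38.p6, 250 bases before to 50 after the start) were held for Itgam, Itgax, Itga4 and Itgb1. They were searched on both strands for GAGGAA, the core that the myeloid factor PU.1 prefers, as an aid to reading the neighbours Itgam and Itgax. The Itgam window held it 3 times (1 on the gene's strand and 2 on the other, where it reads TTCCTC), the Itgb1 window held it once, and the Itgax and Itga4 windows held none, while 28.3% of 32851 windows of the same length had at least 1. The windows of the neighbours are shown with the matches in capitals, and a match describes only the letters.
Itgam, chr7:128062390-128062689, forward strand: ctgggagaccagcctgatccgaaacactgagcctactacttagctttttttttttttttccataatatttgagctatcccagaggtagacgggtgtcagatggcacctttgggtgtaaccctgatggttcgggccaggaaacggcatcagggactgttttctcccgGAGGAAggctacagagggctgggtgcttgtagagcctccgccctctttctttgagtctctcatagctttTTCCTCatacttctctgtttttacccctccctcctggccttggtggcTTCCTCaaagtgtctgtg
Itgax, chr7:128129300-128129599, forward strand: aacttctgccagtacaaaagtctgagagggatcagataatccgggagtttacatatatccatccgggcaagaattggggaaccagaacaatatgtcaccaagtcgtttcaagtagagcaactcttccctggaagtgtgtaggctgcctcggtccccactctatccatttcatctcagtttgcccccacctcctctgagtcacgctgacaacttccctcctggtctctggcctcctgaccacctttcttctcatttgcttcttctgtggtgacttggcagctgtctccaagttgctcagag

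**Figure D1:**
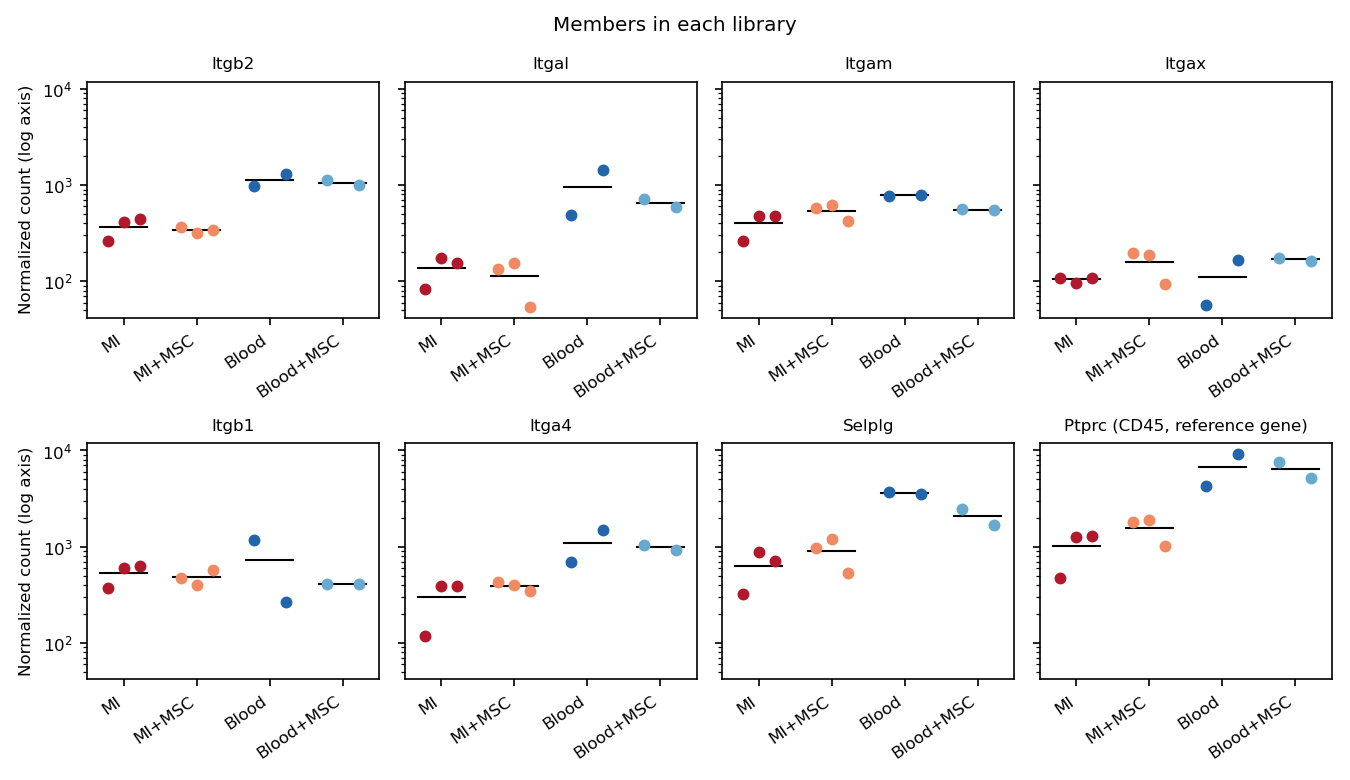
Each panel plots the normalized count (log axis) of a member, or of the leukocyte gene Ptprc, in each of the 10 libraries by group, with a line at the group mean. Itgb2, Itgal, Itga4 and Selplg sit lower in all 6 cardiac libraries than in all 4 blood libraries, while Itgam, Itgax and Itgb1 overlap.

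Itga4 (ENSMUSG00000027009), the alpha chain of VLA-4 that binds VCAM-1 and fibronectin, lay at chromosome 2, 79085660 to 79163467, forward strand. The MI libraries had 118, 387 and 394 normalized counts of Itga4, the MI+MSC libraries 430, 395 and 350, the Blood libraries 685 and 1490 and the Blood+MSC libraries 1039 and 921. All cardiac libraries were below all blood libraries, and MI 13 stood well below the other 5 cardiac libraries. MI was 3.83-fold lower than Blood (log2 fold change -1.94, SE 0.51, adjusted p = 0.0148 with limma), and the call was lost without Blood 22 and in the fit of only the groups compared. MI+MSC against Blood+MSC gave -1.32 (SE 0.51, adjusted p = 0.106), which was not called.

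Itgb1 (ENSMUSG00000025809) lay at chromosome 8, 129411876 to 129460618, forward strand. Its chain pairs with alpha4 in VLA-4 and with many matrix-binding alpha chains in other cells. Itgb1 stood at 370, 607 and 636 normalized counts in the MI libraries, at 473, 395 and 567 in those of MI+MSC, at 1180 and 268 in those of Blood and at 404 and 406 in those of Blood+MSC. Blood 21 was the highest library and Blood 22 the lowest, so the Blood pair spanned all others. The log2 fold change was -0.11 (95% interval -1.25 to 1.03) for MI against Blood and 0.22 (-0.92 to 1.37) for MI+MSC against Blood+MSC. The first turned to 0.96 without Blood 21, was -1.17 without Blood 22, and was called at 1.20 (adjusted p = 0.00903) when MI 13 and Blood 21 were both left out.

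Blood 21 was the highest library for platelet markers as well as for Itgb1. The 8 platelet markers summed to 28565 normalized counts in Blood 21, against 624 to 1194 in the other 3 blood libraries and 487 to 1773 in the cardiac libraries, where only Gp1ba was at 0, in MI 13. The 9 endothelial markers summed to 1526 in Blood 21 with Kdr, Tie1, Emcn and Egfl7 at 0, to 76.7 to 123 in the other blood libraries and to 492 to 2269 in the cardiac libraries. In other libraries the platelet sum and Itgb1 did not go together. Blood 22 had the lowest Itgb1 (268) and a platelet sum of 1194, and MI+MSC 15 had a platelet sum of 1773 and 473 of Itgb1. Platelets carry beta1 integrins, and their part in the Itgb1 values was not tested.

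**Figure D2:**
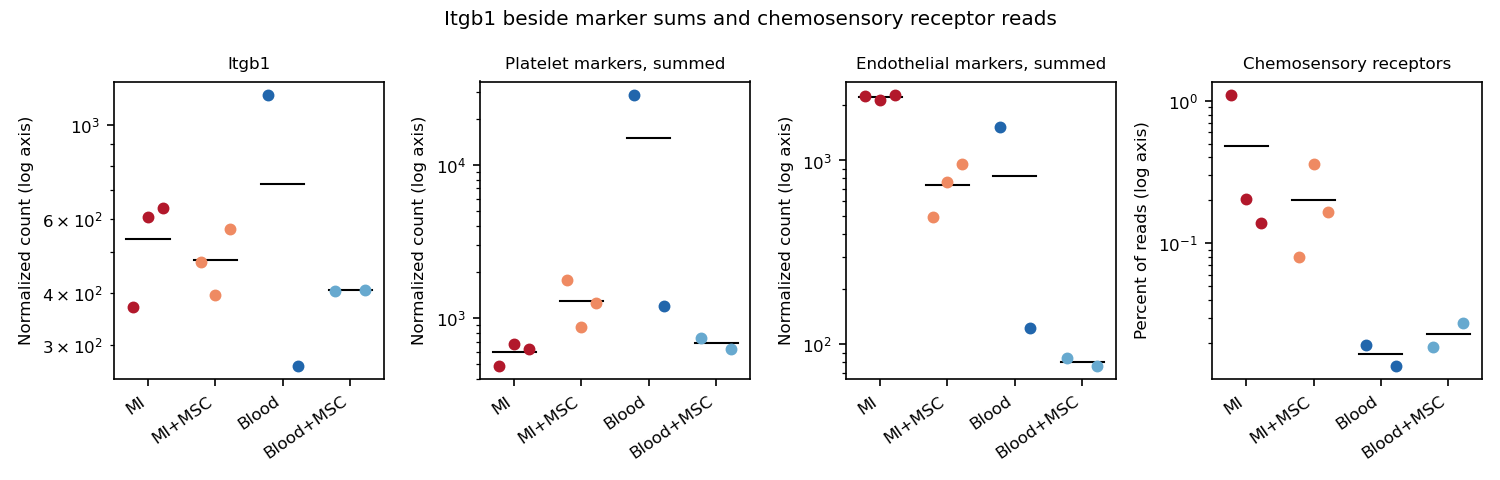
The panels plot, by group and on log axes, the Itgb1 normalized count, the summed platelet and endothelial markers, and the percent of reads on odorant and vomeronasal (chemosensory) receptor genes in each library, with a line at the group mean. Blood 21 is highest for Itgb1 (1180) and for platelet markers (28565), and MI 13 holds the largest share of receptor gene reads (1.10%).

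Selplg (ENSMUSG00000048163), which codes for PSGL-1, lay at chromosome 5, 113956597 to 113970705, reverse strand. The MI libraries had 319, 880 and 702 normalized counts of Selplg, the MI+MSC libraries 965, 1212 and 536, the Blood libraries 3688 and 3507 and the Blood+MSC libraries 2476 and 1660. The 6 cardiac libraries were below the 4 blood libraries, and in blood the Blood+MSC libraries were both below the Blood libraries. MI was 6.16-fold lower than Blood (log2 fold change -2.62, SE 0.51, adjusted p = 0.0034 with limma), and MI+MSC against Blood+MSC gave -1.24 (SE 0.51, adjusted p = 0.123), not called.

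Counted over the members, 4 of 7 (Itgb2, Itgal, Itga4 and Selplg) had every cardiac library under every blood library, as did 14.0% of the 11549 genes tested, and 0 of 7 had every cardiac library over every blood library, against 19.1%. In MI against Blood, 5 of 7 were called lower, where 13.5% of all genes tested were, and 0 were called higher, where 21.2% were. A call needed an adjusted p under 0.05 and a log2 fold change of at least 0.5 in size. The median log2 fold change of the members was -1.64, and that of all genes tested was 0.15. In MI+MSC against Blood+MSC, 2 of 7 (Itgb2 and Itgal) were called lower, against 5.85% of all genes tested, and none higher, against 8.23%. The medians were -1.24 for the members and 0.09 for all genes. Of the 12 neutrophil markers, 10 were called lower in the first comparison and 2 in the second (medians -3.09 and -2.06). Of the 5 all-leukocyte markers, 4 and 1 were called lower (medians -2.09 and -0.28). Of the 11 monocyte and macrophage markers, 0 were called lower, and 2 and 3 higher (medians -0.39 and 0.52). The part of these markers in the member values was not tested.

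The scaling of the libraries set part of these values. Library size scaling moved the median of all genes in MI against Blood to 0.63 and the calls from 2452 higher and 1556 lower to 3778 and 812. Subtraction of the receptor gene rate moved the median to -0.26 and the calls to 1093 higher and 1228 lower. Itgb2, Itgal and Selplg were lower and called in MI against Blood in all 21 alternatives, with log2 fold changes of -1.12 to -1.85, -1.88 to -3.42 and -2.10 to -2.92. The calls of Itgal and Itgb2 in MI+MSC against Blood+MSC were both lost without Blood+MSC 23 and without Blood+MSC 24, which each leave 1 library in that group, and 4 members were called without MI 13, a library of neither group, in a fit that also tested fewer genes (10951).

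**Figure D3:**
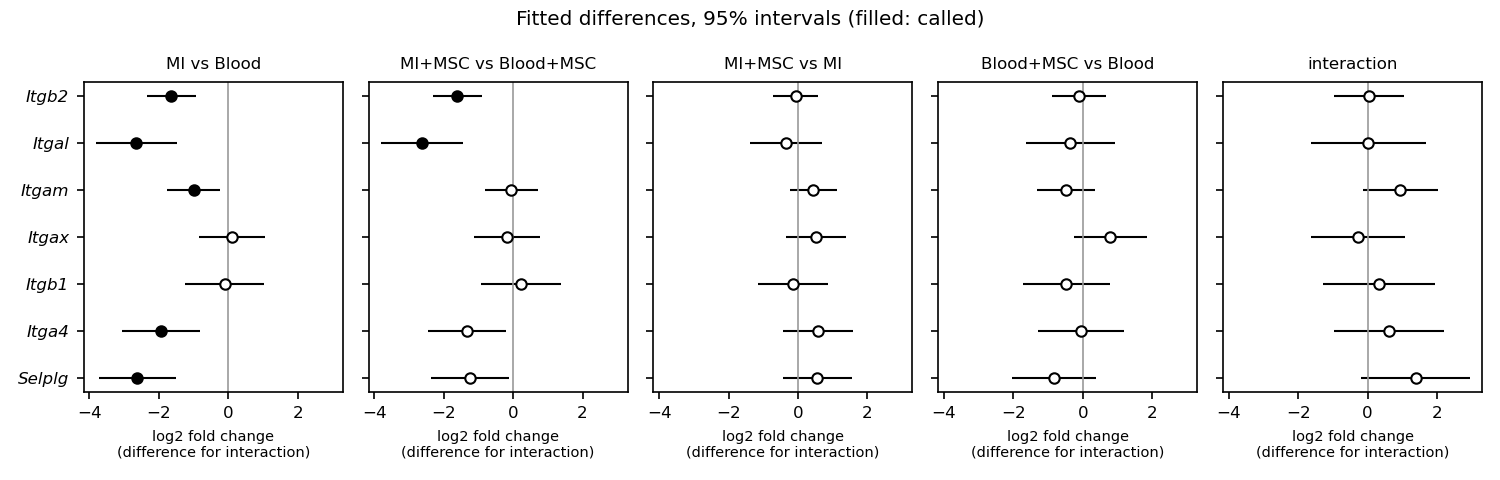
Points show the fitted log2 fold change of each member and bars its 95% interval in the 4 comparisons and in the interaction (the MSC difference in the heart minus that in blood), and filled points were called. The called points are 5 members in MI against Blood and 2 in MI+MSC against Blood+MSC, all below 0.

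MSC treatment moved no member past the threshold in either tissue. In the heart, MI+MSC against MI gave log2 fold changes from -0.34 (Itgal, 95% interval -1.39 to 0.71) to 0.57 (Itga4, -0.44 to 1.58), and all 7 members overlapped between the groups, where 7.05% of all genes tested lay higher and 9.6% lower without overlap. Itgax, at 0.52 (-0.34 to 1.38), Selplg, at 0.55 (-0.44 to 1.55), Itgam, at 0.44 (-0.24 to 1.13), and Itga4 had upper bounds above 1, and Itgb2, at -0.07 (-0.71 to 0.57), had the narrowest. By the same rule limma called 0.0% of all genes tested, with 925 genes at an unadjusted p under 0.05, edgeR called 0 genes, and DESeq2 called 79 with no member among them.

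In blood, Blood+MSC against Blood gave values from -0.83 (Selplg, 95% interval -2.05 to 0.39) to 0.79 (Itgax, -0.26 to 1.84). Selplg and Itgam, with 2 libraries a side, did not overlap and were lower, which 15.4% of all genes tested also were. Limma called 0.0% of all genes, with 848 at an unadjusted p under 0.05, edgeR called 0 genes, and DESeq2 called 179 with no member among them. This comparison rested on 1 library, because without Blood 22 it called 1504 genes, and Itgax was then called higher (1.56) and Itgb1 lower (-1.54), against the shallow Blood 21 alone.

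The MSC difference was then compared between tissues. The interaction was 1.38 for Selplg (95% interval -0.19 to 2.96, adjusted p = 0.63 with limma) and 0.94 for Itgam (-0.14 to 2.02, adjusted p = 0.63), and between -0.27 and 0.62 for the other 5. Limma called 0.0% of all genes by adjusted p alone, with 838 at an unadjusted p under 0.05, edgeR called 0 and DESeq2 20, none a member. Without Blood 22 it called 1086 genes, again no member.

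Ratios between members of the same library need no scaling between libraries, and 4 were compared between the 6 cardiac and the 4 blood libraries with a two-sided exact permutation test, in which the smallest possible p is 0.00952. They were taken as the log2 of the ratio of reads, with 0.5 read added to each. Itgb2 to Itgb1, the beta2 against the beta1 chain, came to -0.50, -0.57 and -0.52 for the MI libraries, -0.35, -0.30 and -0.72 for MI+MSC, -0.26 and 2.28 for Blood and 1.47 and 1.29 for Blood+MSC. The cardiac libraries were all below the blood libraries, but Blood 21 stood only just above them, and its 95% counting interval (-0.60 to 0.07) reached into their range. The means were -0.49 ± 0.15 (SD, n = 6) and 1.19 ± 1.06 (SD, n = 4), a difference of -1.69 (exact permutation p = 0.00952, 0.019 adjusted over the 4 ratios). Without MI 13 and Blood 21 the difference was -2.17. A ratio still depends on the mix of cells in a library, and most cells carry beta1. The striated muscle markers summed to 3265 to 24896 in the cardiac libraries and 22.6 to 63.6 in blood. The part of other cells in this ratio was not tested.

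Itgam to Itgal, the chain of Mac-1 against that of LFA-1, came to 1.58, 1.45 and 1.63 for the MI libraries, 2.11, 2.003 and 2.97 for MI+MSC, 0.65 and -0.86 for Blood and -0.36 and -0.10 for Blood+MSC. Every cardiac library held more Itgam than Itgal reads, and the tissues did not overlap. The means were 1.96 ± 0.56 (SD, n = 6) and -0.17 ± 0.63 (SD, n = 4), a difference of 2.12 or 4.36-fold (exact permutation p = 0.00952, adjusted 0.019). The difference was 2.47 without MI 13 and Blood 21. All 3 MI+MSC libraries were above all 3 MI libraries (means 2.36 ± 0.53 and 1.55 ± 0.09, SD, n = 3 each). With 3 against 3 the exact permutation test gave p = 0.1, the smallest it can give. The ratios of Itgb2 to Itgb1, Itgax to Itgam and Itgb2 to Ptprc overlapped between these groups (exact permutation p = 0.6, 0.9 and 0.2). The share of gene pairs whose ratio did not overlap was not computed.

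Itgax to Itgam came to -1.22, -2.31 and -2.16 for the MI libraries, -1.57, -1.73 and -2.18 for MI+MSC, -3.70 and -2.25 for Blood and -1.67 and -1.76 for Blood+MSC. The tissues overlapped, and the difference of 0.48 (exact permutation p = 0.343) turned to -0.10 without MI 13 and Blood 21. Itgb2 to Ptprc, the gene of the leukocyte antigen CD45, averaged -1.73 ± 0.61 (SD, n = 6) in the heart and -2.52 ± 0.34 (SD, n = 4) in blood. The difference of 0.79 gave an exact permutation p of 0.0476, 0.0635 adjusted over the 4 ratios, and the tissues overlapped.

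**Figure D4:**
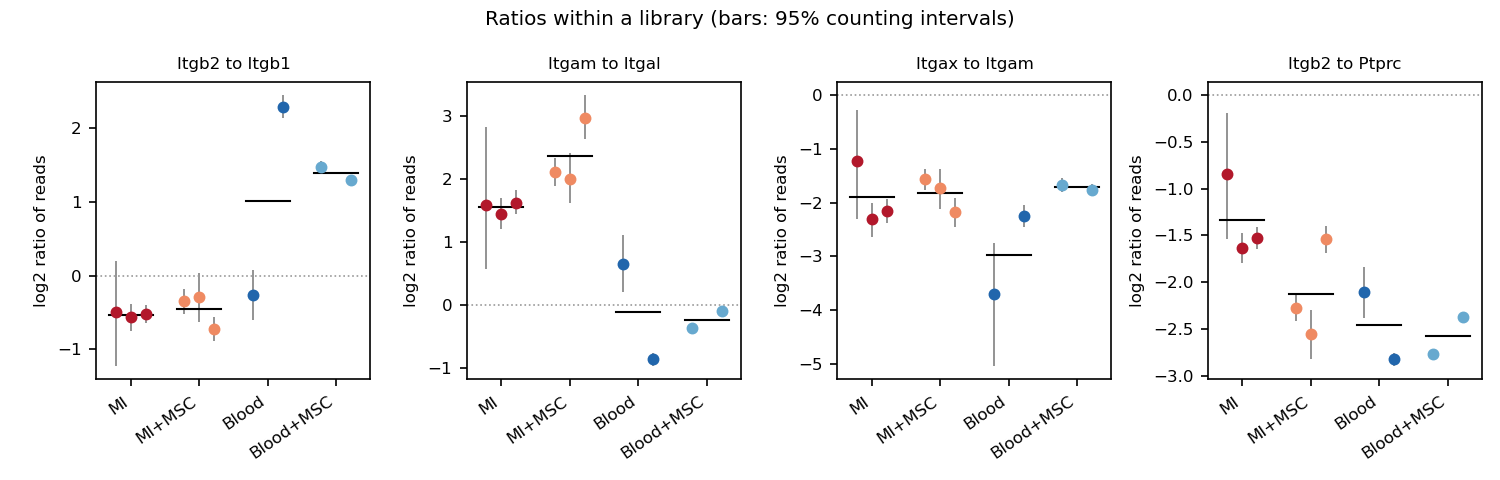
Each point is the log2 ratio of the reads of 2 genes in a library, bars are 95% counting intervals of that library, and lines are group means. Itgb2 to Itgb1 is lower and Itgam to Itgal higher in all 6 cardiac than in all 4 blood libraries, and the other ratios overlap.

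Relative to CD45 the members differed among themselves. Ptprc stood at 471, 1272 and 1280 normalized counts in the MI libraries, at 1798, 1894 and 1005 in those of MI+MSC, at 4232 and 9254 in those of Blood and at 7641 and 5158 in those of Blood+MSC. Ptprc was called lower in MI than in Blood (log2 fold change -2.77, adjusted p = 0.00586 with limma) and in MI+MSC than in Blood+MSC (-2.06, adjusted p = 0.0423). Of the 5 all-leukocyte markers, 4 were called lower in the first comparison (median -2.09), against 13.5% of all genes tested. Ptprc was the only 1 called in the second (median -0.28), against 5.85%. A ratio to Ptprc therefore does not stand for a ratio to the leukocyte markers as a set. The ratios of the other 6 members to Ptprc were added after their values were seen and carry no test. The cardiac mean was above the blood mean by 2.37 for Itgax, 1.89 for Itgam and 0.78 for Itga4 on the log2 scale, with no overlap of the tissues. It was above by 2.48 for Itgb1 and 0.48 for Selplg, and below by 0.23 for Itgal (-0.23), with overlap. The median log2 fold change of all genes tested was 0.15 in MI against Blood and 0.09 in MI+MSC against Blood+MSC. A gene at those medians also lies higher relative to Ptprc in the heart, so these rises cannot be read as particular to the members. The share of all genes whose ratio to Ptprc did not overlap was not computed. Between the MSC groups of the heart, Itgal to Ptprc was the ratio to Ptprc that moved most, with means of -3.85 ± 0.31 (SD, n = 3) in MI+MSC and -2.77 ± 0.31 in MI and no overlap. It was picked as the largest and carries no test. The levels of the 2 genes overlapped between these groups and were not called (log2 fold changes 0.72 for Ptprc and -0.34 for Itgal). Of all genes tested, the levels of 7.05% lay higher and of 9.6% lower in MI+MSC without overlap.

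Levels between genes were set per kilobase of the canonical transcript, and are means of normalized counts per kb. In the cardiac libraries Selplg stood highest at 411 ± 170 (SD, n = 6), followed by Itgb2 at 121 ± 21.9 and Itgb1 at 101 ± 22.3, which overlapped, and then by Itga4 at 34.7 ± 11.5, Itgax at 32.1 ± 11.3 and Itgal at 24.2 ± 9.06, which also overlapped. In blood Selplg stood at 1514 ± 506 (SD, n = 4) and Itgb2 at 370 ± 50.8, both clear of the next member. Itgal at 155 ± 81.5, Itgb1 at 113 ± 82.9 and Itga4 at 104 ± 33.9 overlapped, and Itgax was lowest at 34.4 ± 13.8. Itgam, at 127 ± 33.9 in cardiac and 179 ± 35.2 in blood libraries on its whole transcript and at 285 and 402 when only its 1668 unshared exon bases are counted, has no sure place in this order. Per kb of unshared exon bases, Selplg stood at 180 in cardiac and 662 in blood libraries, and Itgb2 at 110 and 339. On that measure Itgam was above Selplg in the cardiac libraries and above Itgb2 in both tissues, so the order depends on the length used.

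The partners of these receptors were followed in 6 lists, beside which the share of all genes tested was 21.2% higher and 13.5% lower in MI against Blood, and 8.23% higher and 5.85% lower in MI+MSC against Blood+MSC. The medians of all genes were 0.15 and 0.09. Of 10 endothelial counter-receptors and selectins, 8 were tested and 5 were called higher and 0 lower in MI than in Blood, and 1 higher in MI+MSC than in Blood+MSC, where 8.23% of all genes were. Icam1, the main ligand of LFA-1 and Mac-1, ranged from 151 to 506 normalized counts in MI, 523 to 1430 in MI+MSC, 58.5 to 106 in Blood and 94.2 to 107 in Blood+MSC. It was called higher in both comparisons (log2 fold changes 1.90, adjusted p = 0.0202, and 3.28, adjusted p = 0.00311, limma). Jam2, a junction protein that VLA-4 can bind, was called in the first (2.36, adjusted p = 0.00197) and not in the second (0.43, adjusted p = 0.509). Pecam1 (1.42 and 2.34) and Icam2 (1.17 and -0.84) were not called, and Pecam1 is also on the endothelial marker list given above.

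Of the matrix and plasma ligands of integrins, 7 were tested, with 4 higher (Tnc, Spp1, Emilin1 and Mfge8) and 1 lower (C3) in both comparisons of heart with blood, against 21.2% higher and 13.5% lower of all genes in the first and 8.23% and 5.85% in the second. Spp1, osteopontin, ranged from 2488 to 5333 normalized counts in MI, 6107 to 7884 in MI+MSC and 323 to 657 in the blood libraries, with log2 fold changes of 2.91 (adjusted p = 0.00131) and 4.33 (adjusted p = 0.000378, limma). C3, whose fragment iC3b is a ligand of Mac-1, was lower by -1.16 (adjusted p = 0.0458) and -1.98 (adjusted p = 0.0094). Fn1 (fibronectin, 0.90 and -1.32) and Thbs1 (thrombospondin 1, 1.85 and 2.27) were not called.

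The list of integrin activation from inside the cell holds genes that open integrins and genes that restrain them, such as Flna. The share of all genes lower was 13.5% in MI against Blood and 5.85% in MI+MSC against Blood+MSC. In the list, 17 genes were tested. Of these, 11 were lower and 2 higher (Fermt2 and Tln2) in MI than in Blood, and 8 were lower and 1 higher (Fermt2) in MI+MSC than in Blood+MSC, with list medians of -1.43 and -1.27 against 0.15 and 0.09 for all genes. Tln1 (talin 1), which splits the integrin tails, was 454 to 738 normalized counts in MI, 514 to 747 in MI+MSC, 1463 to 3006 in Blood and 2559 to 2756 in Blood+MSC (log2 fold changes -1.77, adjusted p = 0.00854, and -2.03, adjusted p = 0.00923, limma). Flna (filamin A, which competes with talin) and Cytip (a cytohesin partner) were lower in the first comparison (-1.60, adjusted p = 0.0159, and -1.80, adjusted p = 0.0235) and not called in the second (-1.23 and -0.39). Rap1b was called in neither (-0.85 and -0.71).

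Of the 15 genes of signalling downstream of integrins and PSGL-1, all tested, 11 were lower and 0 higher in MI than in Blood, and 4 lower and 0 higher in MI+MSC than in Blood+MSC (medians -1.46 and -1.07, against 0.15 and 0.09 for all genes, of which 13.5% and 5.85% were lower). Fgr, a Src-family kinase of myeloid cells, was lower in both (-1.98, adjusted p = 0.00652, and -1.67, adjusted p = 0.0281, limma). The kinases Lyn (-1.79, adjusted p = 0.00791) and Syk (-1.50, adjusted p = 0.0136) and the adaptor Tyrobp (DAP12, -2.59, adjusted p = 0.00652) were lower in the first, and in the second gave -0.90, -0.89 and -1.46 without a call. These kinases and the adaptor are carried by all myeloid cells, and the summed neutrophil and leukocyte markers were lower in the same libraries (all-leukocyte markers 1546 to 6892 in cardiac and 11128 to 19898 in blood libraries). Gene by gene, 4 of the 5 all-leukocyte markers were called lower in MI than in Blood, and 1 (Ptprc) in MI+MSC than in Blood+MSC. The part of the neutrophil and leukocyte markers in the values of this list was not tested.

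Of the 14 genes that glycosylate, sulfate or anchor PSGL-1, 2 were higher (B4galt1 and Tpst1) and 4 lower (St3gal4, Fut4, St3gal6 and Ezr) in MI than in Blood, and 3 lower (St3gal4, St3gal6 and Ezr) in MI+MSC than in Blood+MSC. Of all genes, 21.2% were higher and 13.5% lower in the first comparison and 5.85% lower in the second. The summed all-leukocyte markers were lower in the same cardiac libraries. Gene by gene, 4 of the 5 were called lower in the first comparison (median log2 fold change -2.09) and 1 in the second (median -0.28). The part of these markers in the values of this list was not tested. St3gal4, St3gal6 and Fut4 add the sialic acid and fucose that selectins read. Ezr (ezrin, an anchor to actin) was 134 to 292 normalized counts in MI, 186 to 324 in MI+MSC and 564 to 985 in the blood libraries (-1.86, adjusted p = 0.00715, and -1.54, adjusted p = 0.0331, limma). The other anchor Msn (moesin, -0.25 and -0.61), Gcnt1, which branches the sugar chain (-0.77 and -0.04), and Snx20, a sorting partner of PSGL-1 (-1.02 and -0.26), were not called.

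The other integrin chains showed no common direction. Of 20 listed, 14 were tested, with 5 higher (Itga7, Itga9, Itgae, Itga1 and Itga5) and 3 lower (Itgb3, Itga2b and Itgb7) in MI than in Blood, and 3 higher (Itga9, Itga1 and Itgb5) and 2 lower (Itga2b and Itgb7) in MI+MSC than in Blood+MSC, against 21.2% and 13.5% of all genes in the first and 8.23% and 5.85% in the second. Itga2b, the platelet alphaIIb chain, was 150.7 to 1420 normalized counts in Blood and 4.06 to 50.4 in the cardiac libraries (-4.67, adjusted p = 0.00311, and -3.07, adjusted p = 0.0413, limma), and it is on the platelet list together with Itgb3. Itga6, a laminin receptor chain, spanned 137 to 3222 in Blood and was not called (-0.90 and 1.96), nor was Itgav (0.50 and 0.67). Itgb5 was not called in the first (0.97) and called in the second (2.33, adjusted p = 0.032). None of the genes of the 6 lists was called in MI+MSC against MI, in Blood+MSC against Blood or in the interaction. Limma called 0.0% of all genes tested in each of these, so this says nothing particular about the lists.

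**Figure D5:**
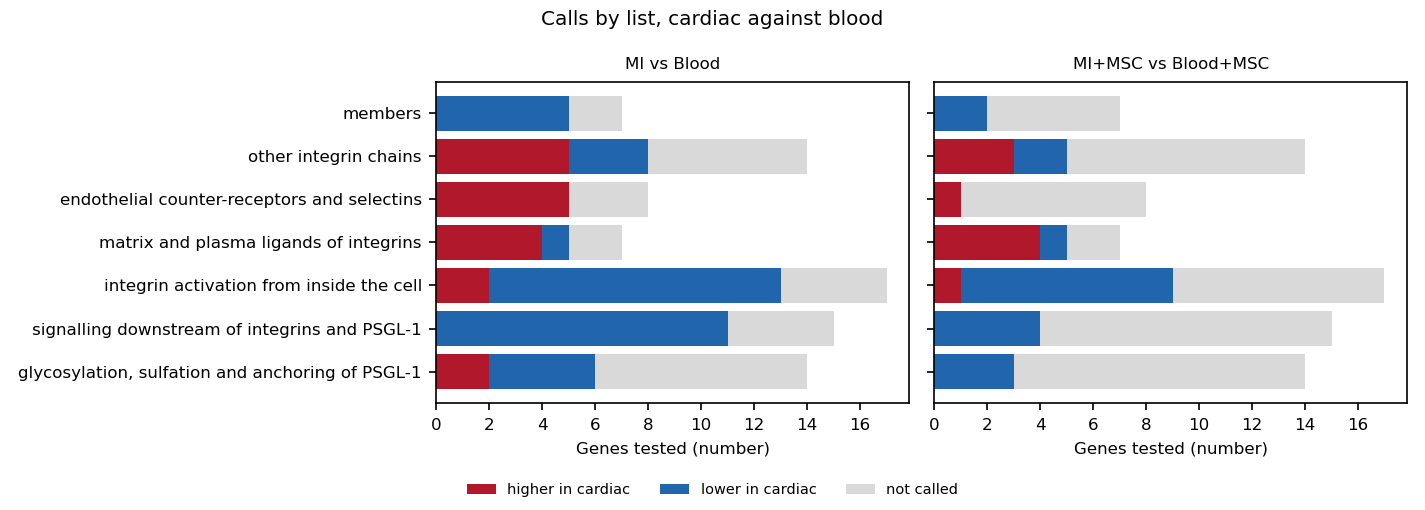
Bars give the number of genes tested in each list, split into those called higher in the heart, those called lower and those not called, for MI against Blood and MI+MSC against Blood+MSC. Activation and signalling genes are mostly lower or not called in the heart (11 of 17 and 11 of 15 lower in MI), and counter-receptors and ligands were higher or not called, except C3.

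The genes whose levels were most like each member were sought among 3397 protein-coding genes that averaged 100 normalized counts or more, by Pearson's r of log2 values over the 10 libraries. These libraries share the split between tissues and differ in depth, so the values only describe these samples. Itgb2 was closest to Tbc1d14, Stk24 and Ric8a (r 0.992 to 0.989) and Itgal to Mcemp1, Niban1 and Jaml (0.993 to 0.985). Itga4 was closest to Arhgap25, AB124611 and Gnb2 (0.996 to 0.989), Selplg to Map1lc3b, Msrb1 and Rc3h2 (0.996 to 0.993) and Itgam to Sephs2, Cd52 and Fcgr4 (0.990 to 0.981). Itgax (Ubap2l, Rbm25 and Ate1, 0.930 to 0.917) and Itgb1 (Marchf8, Bicd2 and Mbnl1, 0.922 to 0.901) had no gene as close. Among the members, Itgb2 and Itgal had an r of 0.95 over the 10 libraries and Itgb2 and Itga4 of 0.92, whereas Itgb1 and Itgax had -0.81.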

How the data were processed

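Ly6G+ cells were sequenced as stranded, rRNA-depleted paired-end libraries. Per the study's methods, the authors trimmed reads with Trimmomatic, removed duplicates with Picard, mapped to GRCm39 with STAR, counted genes with featureCounts, removed mitochondrial reads and divided by DESeq2 size factors. The deposited signal values are these normalized counts. The deposited table named as raw counts held the same values in all 281850 cells, so whole reads were recovered (100% of values within 0.01 of a whole number of reads). Genes with a mean of at least 10 were tested with limma 3.58.1 (intensity trend, Benjamini-Hochberg adjustment over all genes tested) on log2(value + 2), with all 10 libraries in the fit. edgeR 4.0.16 and DESeq2 1.42.0 on recovered reads, other scalings, filters and pseudocounts, and leaving out libraries were alternatives. Ratios were tested by exact permutation. Scripts were tested on simulated data. Intervals of single libraries (exact binomial, 95%) cover counting error only. Coordinates are from GENCODE. From each pathway list the 4 genes with the highest mean level were described, and genes called in a list were named where few, and for each member the 3 genes most like it. The members and lists were chosen with earlier results of these data known.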

Additional observations from a re-analysis of the deposited data

Results flagged for a closer look

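A library that stood far from the others was sought in 22 sets of libraries of 1 tissue, of which chance picks about 1 in 20, and 3 were found. Itgax in Blood 21 (56.5 normalized counts, 8 reads) was the lowest blood library, with a gap to the next of 0.901 of the range against a critical value of 0.829. Itgb1 in Blood 21 (1180 normalized counts) was the highest blood library, with a gap of 0.849 of the range against 0.829. Itga4 in MI 13 (118 normalized counts, 14 reads) was the lowest cardiac library, with a gap of 0.743 against 0.625. Blood 21 and MI 13 were the shallowest libraries of their tissues (268860 and 148594 reads), and the part of depth in these values was not tested.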

How the results depend on the processing

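Depth limits these results in MI 13, where the members had 10 to 44 reads, and for Itgax in Blood 21 (8 reads), and Blood and Blood+MSC have 2 libraries each. No paired analysis was possible because the groups share no replicate number. The subtraction of the receptor gene rate, the ratios of members other than Itgb2 to Ptprc and the fits without both MI 13 and Blood 21 were chosen after seeing the data. Unless said otherwise, the cause of a change was not tested.

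In MI against Blood, 5 members were called, against 3 in the fit of only the groups compared, and 3 to 5 when a library was left out. In MI+MSC against Blood+MSC, 2 were called, against 4 with DESeq2, 4 in the fit of only the groups compared, 4 without MI 13 and Blood 21, and 0 to 4 when a library was left out. In Blood+MSC against Blood, 0 were called, and 0 to 2 when a library was left out. Over all genes, the 4008 calls in MI against Blood became 1760 with only the groups compared and 2321 after the subtraction. The 1627 calls in MI+MSC against Blood+MSC became 3693 with edgeR, 3353 with DESeq2, 3784 with only the groups compared, 787 after the subtraction, 4593 without MI 13 and Blood 21, and 272 to 2716 when a library was left out. DESeq2 called 79, 179 and 20 genes in MI+MSC against MI, Blood+MSC against Blood and the interaction, where limma called 0.

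With libraries without MSC alone, the ratios of Itgb2 to Itgb1, Itgam to Itgal and Itgb2 to Ptprc differed by -1.54, 1.66 and 1.13 between the tissues, and with MSC alone by -1.83, 2.59 and 0.45, where 3 against 2 libraries cannot go below an exact permutation p of 0.2. Itgax to Itgam turned to -0.11 with MSC alone and to -0.10 without MI 13 and Blood 21. Itgb2 to Ptprc was 0.75 without them (exact permutation p = 0.0714) and 0.61 to 0.95 when a library was left out.

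Log2 fold changes of members that were not called changed sign as follows. With library size scaling, Itgb1 was 0.41 in MI against Blood, Itgam 0.034 in MI+MSC against Blood+MSC, Itgb2 0.19 and Itga4 0.25 in Blood+MSC against Blood, and Itgal -0.41, Itgb2 -0.39 and Itgb1 -0.098 in the interaction. With TMM scaling, Itga4 was 0.0018 in Blood+MSC against Blood, and Itgal -0.027 and Itgb2 -0.015 in the interaction. With edgeR, Itgax was -0.32 in MI against Blood, and Itgax 0.11 and Itgb2 -0.058 in the interaction. With DESeq2 these values were -0.19, 0.12 and -0.0060. Without MI 13 and Blood 21, Itgax was -0.69 and Itgb1 1.20 in MI against Blood, Itga4 -0.0014 in MI+MSC against MI, Itgb1 0.59 in Blood+MSC against Blood, and Itgax 0.52 and Itgb1 -0.98 in the interaction.

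When a library was left out, values ranged over 0 for several members. In MI against Blood, Itgax ranged from -0.66 to 0.87 and Itgb1 from -1.17 to 0.96. In MI+MSC against Blood+MSC, Itgam ranged from -0.16 to 0.11 and Itgax from -0.35 to 0.16. In MI+MSC against MI, Itgal ranged from -0.66 to 0.12, Itgb2 from -0.30 to 0.078 and Itga4 from -0.0014 to 0.86. In Blood+MSC against Blood, Itgal ranged from -1.13 to 0.40, Itgb2 from -0.31 to 0.10, Itga4 from -0.61 to 0.51 and Itgb1 from -1.54 to 0.59. In the interaction, Itgal ranged from -0.74 to 0.79, Itgax from -1.04 to 0.49, Itgb2 from -0.20 to 0.24 and Itgb1 from -0.73 to 1.40.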
